A study of Mus musculus with 6 samples.

Results

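The MHC class II pathway was followed through 8 genes chosen by name: H2-Aa, H2-Ab1, H2-Eb1, Cd74, H2-DMa, H2-DMb1, Ciita and Ctss. Of these, 7 had a probe set annotated to that gene alone, 1 probe set each, among the 19938 genes with such a probe set in the series. The only probe set annotated to H2-DMb1 is also annotated to H2-DMb2, so no value is given for it. The samples were left ventricles of male C57BL/6 mice, and total RNA was hybridised to 6 Affymetrix expression arrays. The MURC knockout group comprised 3 arrays, from mice aged 11, 11 and 13 weeks. The wild-type group comprised 3 arrays, from mice aged 13, 13 and 12 weeks. MURC is the product of Cavin4 (also named cavin-4) and belongs to the caveolae of muscle cells, and the study asked which transcripts depend on it. The labels list no treatment, and the sources used here do not say how the knockout allele was made.

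MHC class II molecules display peptides from endocytosed proteins to CD4+ T cells. The alpha and beta chains pair in the endoplasmic reticulum with the invariant chain, which fills the peptide groove and guides the complex to endosomes, where cathepsins cut the invariant chain and H2-DM exchanges its last fragment for a peptide. In the mouse heart the pathway is best known from resident macrophages, dendritic cells and B cells, and its transcription in these cells depends on the coactivator CIITA, which interferon gamma can induce. CIITA does not bind DNA itself but is recruited by factors bound at the X and Y boxes of class II promoters.

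These boxes are shown for the 3 class II genes of the set whose RefSeq promoter windows (GRCm38.p6) held both, because class II chains are transcribed through them. Windows were available for 5 of the 8 genes, and only the 250 bases before each start site were searched, on both strands. Capitals mark the X box core (letters CTNGNAAC) and the Y box (letters TGATTGG), and each run is printed 5′ to 3′ on the strand of its gene. The letters were chosen with these promoters in view, so their matches here are a description.
H2-Aa (chr17:34287855-34287919, minus strand): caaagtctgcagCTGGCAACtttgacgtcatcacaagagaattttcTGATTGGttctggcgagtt
H2-Eb1 (chr17:34305761-34305824, plus strand): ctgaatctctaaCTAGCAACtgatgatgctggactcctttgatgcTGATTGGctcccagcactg
H2-DMb1 (chr17:34153082-34153146, plus strand): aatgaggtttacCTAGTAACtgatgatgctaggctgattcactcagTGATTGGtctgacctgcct

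In these windows 26, 25 and 26 bases lay between the boxes of H2-Aa, H2-Eb1 and H2-DMb1, and the Y box began 50, 61 and 63 bases before the start site. The X box core alone was found in 10.9% of all 32851 promoter windows and the Y box in 7.23%. Both in this order on 1 strand, with 15 to 30 bases between them, were found in 17 windows of 15 genes, or 0.0517%, and the class II gene H2-Ob was also among the 15. The searched bases of the 2 H2-DMa windows and of the Ctss window held neither set of letters. The Ctss window instead held, 3 times on the strand of the gene, the letters AANNGAAA, the core of elements read by interferon regulatory factors. At least 1 match was present in 21.3% of all windows and at least 3 in 0.849%, overlapping matches counted, and the H2-Aa window and 1 of the H2-DMa windows held 1 each. The Ctss matches, which overlap each other and begin 25, 19 and 14 bases before the start site, are capitalised below.
Ctss (chr3:95526749-95526785, plus strand): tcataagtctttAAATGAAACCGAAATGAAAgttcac

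Signals are log2 values as the authors deposited them, and a difference is the knockout mean minus the wild-type mean, tested with limma over the 24898 probe sets with a mean signal of at least 3.45, the 30th percentile. The array medians lay between 4.60 and 4.71, and the labels number the samples without naming the animals, so the tests gauge the spread between these samples only. The targeted gene separated the groups on every array, with Cavin4 at 5.38, 5.74 and 5.59 in the knockout, against 8.75, 8.62 and 8.07 in the wild type (limma adjusted p = 0.012). All 8 ventricular cardiomyocyte markers were above the filter. Knockout replicate 2 stood apart in the atrial light chain genes, with Myl7 at 3.87, 7.22 and 4.11 on the knockout arrays and 4.06, 3.90 and 3.61 on the wild-type arrays. The 3 tested atrial genes had a median log2 difference of 1.14 with that array and 0.11 without it.

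All 7 measured class II pathway genes had a lower mean in the knockout, by 0.12 to 0.44 on the log2 scale, and none passed the adjusted threshold of 0.05. Of all tested probe sets, 0.00402% passed it. The median difference over the 7 genes was -0.30, against -0.04 over all tested probe sets. A lower mean was found in 59.0% of all probe sets and a difference at or below -0.30 in 6.82%. At an unadjusted p under 0.05, 4 of the 7 were lower (H2-Aa, H2-DMa, H2-Eb1 and H2-Ab1), where 9.02% of all probe sets were lower at that level. The genes were chosen with earlier results of these data known, which include H2-Aa, H2-Ab1 and H2-Eb1. The counts and shares given here are therefore descriptions and not a test of the set. In 3 of the 7 the knockout and wild-type arrays did not overlap, where this held, with lower knockout values, for 12.9% of all probe sets. In whole ventricle, fewer cells carrying class II molecules and less class II RNA per cell cannot be told apart.

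**Figure D1:**
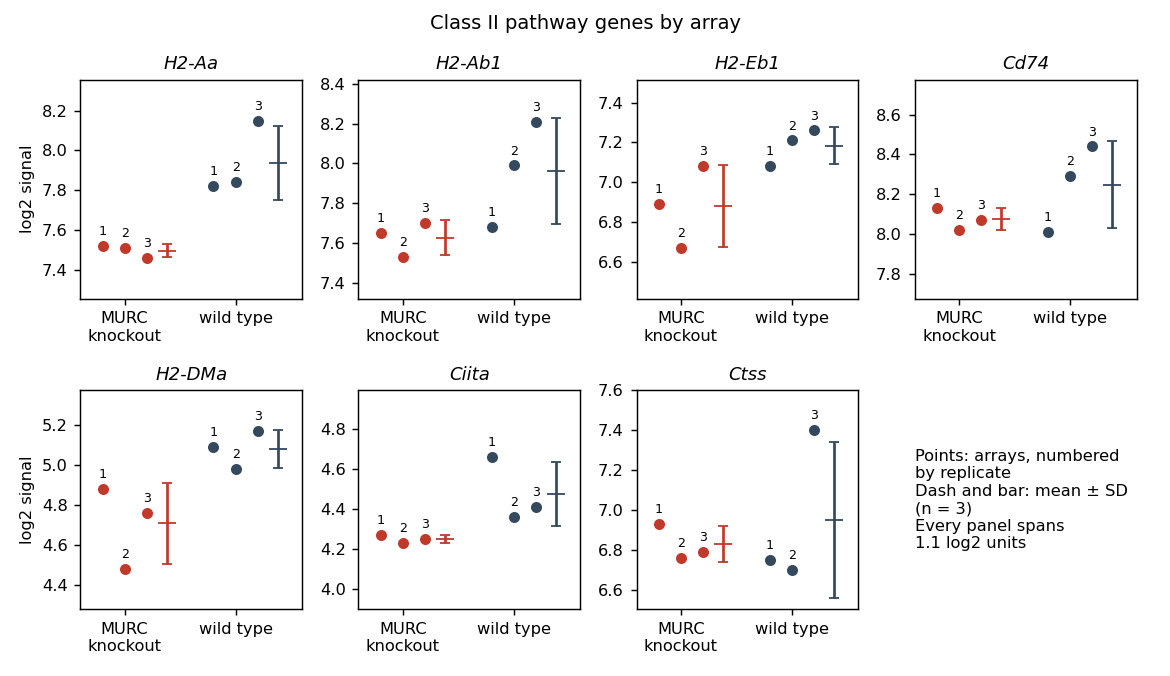
Log2 signal (vertical axis) of the 7 class II pathway genes on each array, with 3 MURC knockout arrays left of 3 wild-type arrays in every panel. Points are arrays numbered by replicate, and the dash and bar are the mean and SD (n = 3). H2-Aa, H2-DMa and Ciita do not overlap between genotypes, and wild-type replicate 3 is the highest array in every panel except that of Ciita.

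H2-Aa, the alpha chain of the I-A molecule, had the largest difference of the 7. Its signal was 7.52, 7.51 and 7.46 on the knockout arrays, against 7.82, 7.84 and 8.15 on the wild-type arrays. The knockout arrays lay within 0.06 of each other, and a gap of 0.30 separated the highest of them from the lowest wild-type array. The means were 7.50 ± 0.03 for the knockout and 7.94 ± 0.19 for the wild type (SD, n = 3), a log2 difference of -0.44 (SE 0.10), which is 1.36-fold lower in the knockout (limma adjusted p = 0.12, unadjusted p = 0.00231). The exact two-sided permutation p was 0.1, the smallest that 3 arrays against 3 allow. When only probe sets listed in the platform annotation were tested, the same difference had a limma adjusted p of 0.0341, in a test that called 1.33% of its probe sets lower.

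H2-Ab1 encodes the beta chain that pairs with H2-Aa. It measured 7.65, 7.53 and 7.70 in the knockout, against 7.68, 7.99 and 8.21 in the wild type. Knockout replicate 3 was 0.02 above wild-type replicate 1, so the groups overlapped. The log2 difference was -0.33 (SE 0.13, limma adjusted p = 0.327). The wild-type arrays were spread more widely, with an SD of 0.09 in knockout hearts and 0.27 in wild-type hearts. Without wild-type replicate 3 the difference was -0.21 and without wild-type replicate 1 it was -0.47.

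H2-Eb1, the beta chain of the second class II molecule, I-E, measured 6.89, 6.67 and 7.08 in the knockout, against 7.08, 7.21 and 7.26 in the wild type. Knockout replicate 3 equalled wild-type replicate 1, and the other knockout arrays were below every wild-type array. The log2 difference was -0.30 (SE 0.11, limma adjusted p = 0.308), and without knockout replicate 2, the lowest array, it was -0.20. C57BL/6 mice are known to lack the I-E alpha chain through a deletion at the start of its gene. The H2-Ea probe set was below the filter on every array, at 2.65, 2.75 and 2.67 on the knockout arrays and 2.71, 2.92 and 2.87 on the wild-type arrays, so the beta chain transcript was measured without a clear signal of its partner.

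Cd74, the invariant chain, had a smaller difference than the 3 chains it escorts. Its signal was 8.13, 8.02 and 8.07 in the knockout, against 8.01, 8.29 and 8.44 in the wild type. Wild-type replicate 1 was the lowest of the 6 arrays and the other wild-type arrays were the highest. The log2 difference was -0.17 (SE 0.11, limma adjusted p = 0.556). It depended on single wild-type arrays, since it was -0.29 without wild-type replicate 1 (unadjusted p = 0.00681, limma adjusted p = 0.206) and -0.08 without wild-type replicate 3.

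H2-DMa, the alpha chain of the peptide-exchange molecule H2-DM, measured 4.88, 4.48 and 4.76 in knockout hearts and 5.09, 4.98 and 5.17 in wild-type hearts. Every knockout array was below every wild-type array, with a gap of 0.10. The log2 difference of -0.37 (SE 0.13, limma adjusted p = 0.269) was the largest after that of H2-Aa. Knockout replicate 2 was the lowest array, and without it the difference was -0.26 and the groups still did not overlap.

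Ciita, the coactivator of class II transcription, was dim and measured 4.27, 4.23 and 4.25 in the knockout, against 4.66, 4.36 and 4.41 in the wild type. The knockout arrays lay within 0.04 of each other and all were below the wild-type arrays, with a gap of 0.09. The log2 difference was -0.23 (SE 0.11, limma adjusted p = 0.445). Without wild-type replicate 1, the highest array, the difference was -0.135. The order of the wild-type arrays in Ciita was not that of the chains, since replicate 1 was highest in Ciita and lowest of the wild-type arrays in H2-Aa, H2-Ab1, H2-Eb1 and Cd74.

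Ctss encodes cathepsin S, the protease that removes most of the remaining invariant chain in antigen-presenting cells. It measured 6.93, 6.76 and 6.79 in the knockout, against 6.75, 6.70 and 7.40 in the wild type. Its lower knockout mean rested on a single array: wild-type replicate 3 was 0.675 above the mean of the other wild-type arrays, which were the lowest of all 6. The log2 difference was -0.12 (SE 0.18, limma adjusted p = 0.82) and it was 0.10 without wild-type replicate 3. With age in weeks in the model it was -0.28 (limma adjusted p = 0.641).

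**Figure D2:**
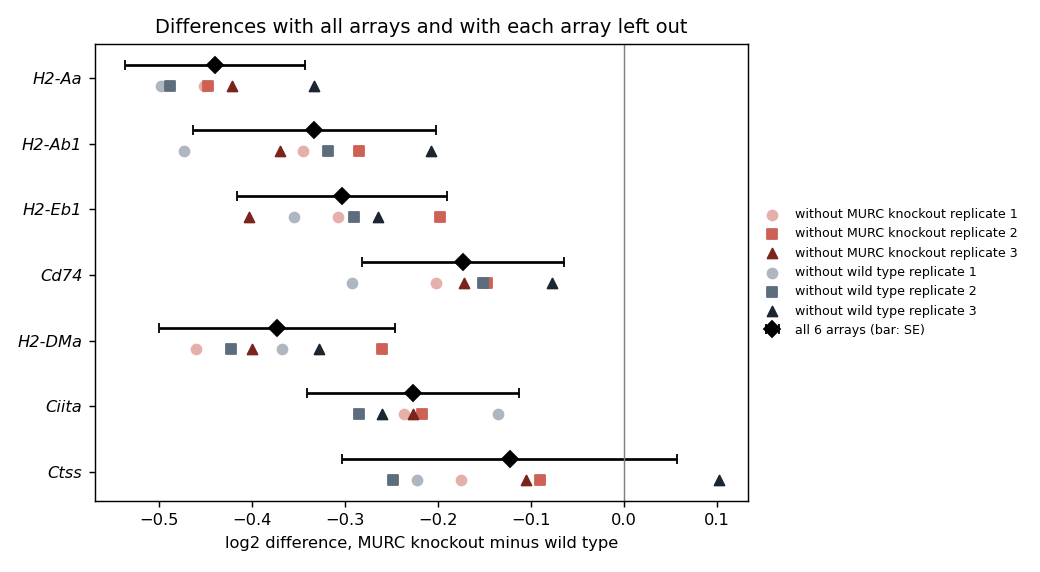
Log2 difference, MURC knockout minus wild type (horizontal axis), of each class II pathway gene with all 6 arrays (black diamond, bar is the SE) and with each array left out in turn (coloured symbols). H2-Aa stays between -0.50 and -0.33, and only Ctss crosses 0, at 0.10 without wild-type replicate 3.

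The number of genes lower at an unadjusted p under 0.05 depended on single arrays more than the direction did. Without knockout replicates 1, 2 and 3 in turn it was 2, 1 and 3, where 7.46%, 7.56% and 6.02% of all probe sets were lower at that level. Without wild-type replicates 1, 2 and 3 in turn it was 5, 2 and 1, where 6.27%, 8.28% and 9.43% were. Where it was 1, that gene was H2-Aa. All 7 means stayed lower when any array other than wild-type replicate 3 was left out, and 6 of 7 did without that one. The number of genes without overlap was 5 with knockout replicate 3 left out, 6 with wild-type replicate 1 left out and 3 with any other array left out. With 5 arrays 16.0% to 22.0% of all probe sets were lower without overlap, with 17.4% when knockout replicate 3 was left out and 16.0% when wild-type replicate 1 was. When age in weeks was added to the model, 1 of 7 was lower at an unadjusted p under 0.05, where 8.43% of all probe sets were. After quantile normalization 2 were, where 7.10% of all probe sets were, and there 51.2% of the probe sets at that level were lower, against 65.7% as deposited.

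Most of the 7 genes had their highest value on the same array, wild-type replicate 3. Relative to each gene's own mean over the 6 arrays, the members averaged -0.08, -0.24 and -0.11 on the knockout arrays and 0.04, 0.08 and 0.31 on the wild-type arrays. On wild-type replicate 3 all 7 were above their own mean, and on knockout replicate 2 none was. Wild-type replicate 3 was the highest array for 6 of the 7 genes, against 13.7% of all tested probe sets, and knockout replicate 2 was the lowest for 4, against 14.1%.

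Over the 21 pairs of genes Pearson's r across the 6 arrays had a median of 0.70 and ranged from -0.001 to 0.96, with 20 pairs above 0. The arrays share the sampled tissue and the scaling of each array, and r over both genotypes includes the difference between them. No pair passed a Benjamini-Hochberg adjustment over the 21 pairs, where 5 had an exact permutation p under 0.05 for r and 3 for Spearman's rho. With the genotype means removed, the median r was 0.37 and 16 pairs were above 0. It then ranged from -0.81, for Cd74 with Ciita, to 0.97. Over the 5 arrays other than wild-type replicate 3 the median was 0.45 and 14 pairs were above 0.

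H2-Ab1 and Cd74, the I-A beta chain and its escort, had the highest r, 0.96 (exact permutation p = 0.0153, adjusted p = 0.175), with a rho of 0.71 (exact permutation p = 0.136, adjusted p = 0.334). The r of this pair was 0.885 without wild-type replicate 3 alone and 0.968 with the genotype means removed. Without the 2 arrays farthest from the median of H2-Ab1, wild-type replicates 2 and 3, it was 0.29, over a narrower range of H2-Ab1. The 2 beta chains H2-Ab1 and H2-Eb1 had an r of 0.85 (exact permutation p = 0.0361, adjusted p = 0.175) and a rho of 0.99 (exact permutation p = 0.00556, adjusted p = 0.117), and r was 0.97 without the same arrays. The I-A partners H2-Aa and H2-Ab1 had an r of 0.88 (exact permutation p = 0.0264, adjusted p = 0.175) and a rho of 0.66 (exact permutation p = 0.175, adjusted p = 0.334), and r was 0.76 without knockout replicate 3 and wild-type replicate 3. The lowest r, -0.001, was that of Cd74 with Ciita (exact permutation p = 0.999, adjusted p = 0.999), with a rho of 0.14 (exact permutation p = 0.803, adjusted p = 0.937), and r was -0.51 without wild-type replicates 2 and 3.

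Among 14156 tested genes outside the set, those whose pattern over the 6 arrays was most like the mean of the 7 members were Zfp623 (r = 0.99), Nup153 (0.98), Zfp809 (0.98), Etv3l (0.98), Plekhg6 (0.97), Stx5a (0.97), Actg2 (0.97) and Apmap (0.97). Of the genes compared, 105 had an r of at least 0.9. How many unrelated genes would reach that r over only 6 arrays was not tested, so the number is a description. The log2 differences of the 8 genes ran from -0.31 to -0.05. Etv3l, at -0.31, measured 4.79, 4.57 and 4.83 on the knockout arrays and 4.90, 5.02 and 5.21 on the wild-type arrays. The 8 genes were picked for their likeness to the members. Lower knockout values, or a low knockout replicate 2 and a high wild-type replicate 3, are therefore no separate finding.

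**Figure D3:**
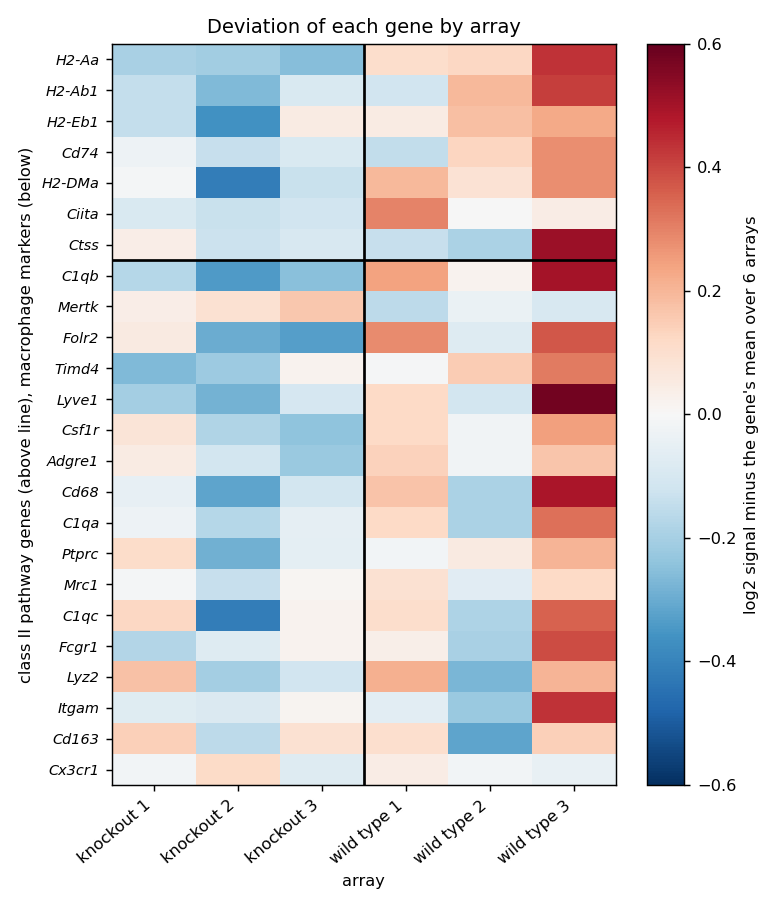
Log2 signal minus each gene's own mean over 6 arrays (colour) for the 7 class II pathway genes (above the horizontal line) and the 17 tested macrophage markers (below it). Columns are 3 knockout arrays, then 3 wild-type arrays. Wild-type replicate 3 is above the mean in 7 of 7 class II genes and in 15 of 17 macrophage markers, while wild-type replicate 2 is above it in 5 of 7 and 3 of 17.

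Macrophage markers were high on the same array as the class II genes, wild-type replicate 3, and apart from them on wild-type replicate 2. Of 18 listed markers 17 were tested, 14 had a lower and 3 a higher mean in the knockout, and the median log2 difference was -0.17. Without wild-type replicate 3 the median was -0.06, with 13 lower, and without wild-type replicate 2 it was -0.29, with 15 lower. None passed the adjusted threshold. At an unadjusted p under 0.05 there were 4 lower and 1 higher, where 9.02% of all probe sets were lower and 4.71% higher at that level. The complement gene C1qb measured -0.51 (limma adjusted p = 0.14), while the other C1q genes of the list, C1qa and C1qc, measured -0.17 and -0.18 and overlapped between genotypes. The resident macrophage markers Folr2 and Timd4 measured -0.38 (limma adjusted p = 0.333) and -0.31 (limma adjusted p = 0.346). Mertk, a receptor for uptake of dead cells, measured 0.20 (limma adjusted p = 0.318). The summed linear signal of the 17 markers ranged from 1900 to 2230 in knockout hearts and from 2030 to 2750 in wild-type hearts, so the groups overlapped. Wild-type replicate 3 was the highest array for 13 of the 17.

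On wild-type replicate 2 the macrophage markers averaged -0.10 against their own means, where the class II genes averaged 0.08. The monocyte receptor gene Ccr2 was the 1 marker below the filter, at 2.74, 2.62 and 2.63 in the knockout, against 2.51, 2.53 and 2.71 in the wild type. Whether macrophage content contributed to the class II differences was not tested.

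Markers of the other cells that carry class II molecules were dim, apart from the dendritic cell genes Zbtb46 and Batf3. Their means were 5.54 and 5.33 in the knockout, against 5.52 and 5.31 in the wild type. Of 9 dendritic cell markers 7 were tested, 3 lower and 4 higher, with a median of 0.02, a summed signal of 155 to 162 on the knockout arrays and 156 to 167 on the wild-type arrays, and Itgax and Clec9a below the filter. Siglech, a marker of plasmacytoid dendritic cells, was the 1 with an unadjusted p under 0.05, where 9.02% of all probe sets were lower at that level. It was little above the filter, at 3.70, 3.69 and 3.82 in knockout hearts and 4.18, 4.14 and 4.04 in wild-type hearts (limma adjusted p = 0.196). Clec10a, Flt3 and Xcr1 measured 0.07, -0.06 and -0.04. Of 8 B cell markers 3 were tested, with Cd79b at -0.13, Pax5 at -0.07 and Blk at -0.04, a summed signal of 54.4 to 57.0 in the knockout, against 55.4 to 63.9 in the wild type, and Cd79a, Ms4a1, Cr2 and Fcrla below the filter.

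T cells, of which the CD4+ ones read class II molecules, carry few of these molecules in mice. The 5 tested T cell markers had a median of -0.05 and none had an unadjusted p under 0.05, with Cd8a, Cd4, Cd2 and Cd8b1 at -0.15, -0.11, -0.05 and -0.03. Their summed signal was 78.3 to 85.5 on the knockout arrays and 83.2 to 88.4 on the wild-type arrays, with Cd3d and Cd3g below the filter. Of 4 tested neutrophil markers the growth factor receptor gene Csf3r measured -0.31 (limma adjusted p = 0.326), Mpo -0.11, S100a9 0.10 and Camp -0.01. Their summed signal was 60.3 to 66.5 in knockout hearts and 63.1 to 73.1 in wild-type hearts, with S100a8 and Ly6g below the filter. The red cell gene Alas2 measured -0.02 and ranged from -0.285 to 0.345 when each array was left out. The endothelial list had a median of 0.06, the fibroblast list -0.02 and the ventricular cardiomyocyte list 0.00, and no gene of these lists had an unadjusted p under 0.05.

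The other class II chain genes and promoter factors had smaller median differences than the 7 members, a contrast that was not tested. H2-Eb2, a further beta chain gene, measured -0.22 (limma adjusted p = 0.495), and H2-Ob and H2-Oa, which encode the inhibitor of H2-DM, measured -0.13 and -0.02. These chain genes were dim and little above the filter. H2-Eb2, H2-Ob and H2-Oa had means of 3.59, 3.51 and 3.86 in the knockout, against 3.81, 3.64 and 3.87 in the wild type. Ciita, the dimmest member, had means of 4.25 and 4.48. Whether the low signal of the chain genes made their differences smaller was not tested. The factors that bind class II promoters had a median of -0.10, with 5 of 7 lower and none at an unadjusted p under 0.05. Without wild-type replicate 3 the median was -0.17 and all 7 were lower, and without knockout replicate 3 and wild-type replicate 2 in turn it was -0.03 and -0.05. The Y box factor genes Nfya and Nfyc measured -0.19 (limma adjusted p = 0.411) and -0.14, and Nfyb measured -0.10. The X box factor gene Rfx5 measured -0.15, with 5.28, 5.25 and 4.91 in the knockout, against 5.29, 5.48 and 5.11 in the wild type, so it overlapped. Wild-type replicate 3, the highest array of the class II chains, was the highest for none of these 7 factors.

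The endosomal processing genes did not share a direction. Of 9 tested, 4 were lower and 5 higher, with a median of 0.01. The proteases Ctsd and Ctsl measured 0.22 (limma adjusted p = 0.25) and 0.17 (limma adjusted p = 0.31), and both were higher without overlap, as 6.12% of all probe sets were. Ctsb, a further cathepsin gene, measured 9.85, 9.78 and 9.62 on the knockout arrays and 9.97, 9.90 and 10.12 on the wild-type arrays, a log2 difference of -0.25 (limma adjusted p = 0.267). Ifi30, an interferon-inducible thiol reductase that unfolds antigens, measured -0.21 (limma adjusted p = 0.403). Ctsb and Ifi30 were lower without overlap, as 12.9% of all probe sets were.

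Class I presentation, which displays peptides from cytosolic proteins, was near the median of all probe sets, which was -0.04. Of 12 tested genes 11 were lower, with a median log2 difference of -0.06 and none at an unadjusted p under 0.05. Psmb8, an immunoproteasome subunit, measured -0.17, the chaperone gene Calr -0.08, the trimming peptidase gene Erap1 -0.08 and the peptide transporter gene Tap1 -0.19. Tap1 was 0.635 higher on wild-type replicate 3 than on the mean of the other wild-type arrays, and its difference was 0.025 without that array. For 6 of the 12 genes wild-type replicate 3 was the highest array.

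In interferon gamma signalling 7 of 8 tested genes were lower, with a median of -0.08. The receptor chain gene Ifngr2 measured 10.65, 10.62 and 10.43 in the knockout, against 10.96, 10.78 and 10.75 in the wild type, a log2 difference of -0.26 (limma adjusted p = 0.242). Irf1, a transcription factor that acts on the Ciita gene, measured 0.13 and was higher in the knockout without overlap (limma adjusted p = 0.478). Irf8 measured -0.26 (limma adjusted p = 0.488), the feedback inhibitor gene Socs1 -0.16 and Ifng itself -0.03. Of 6 tested co-stimulation genes 3 were lower, with a median of -0.02. Among them Cd274, which encodes the inhibitory ligand PD-L1, measured 6.59, 6.60 and 6.75 in knockout hearts and 6.70, 6.78 and 7.38 in wild-type hearts, while Cd40, Icosl and Cd80 measured -0.16, -0.05 and 0.06. Without wild-type replicate 3 the Cd274 difference was -0.09.

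**Figure D4:**
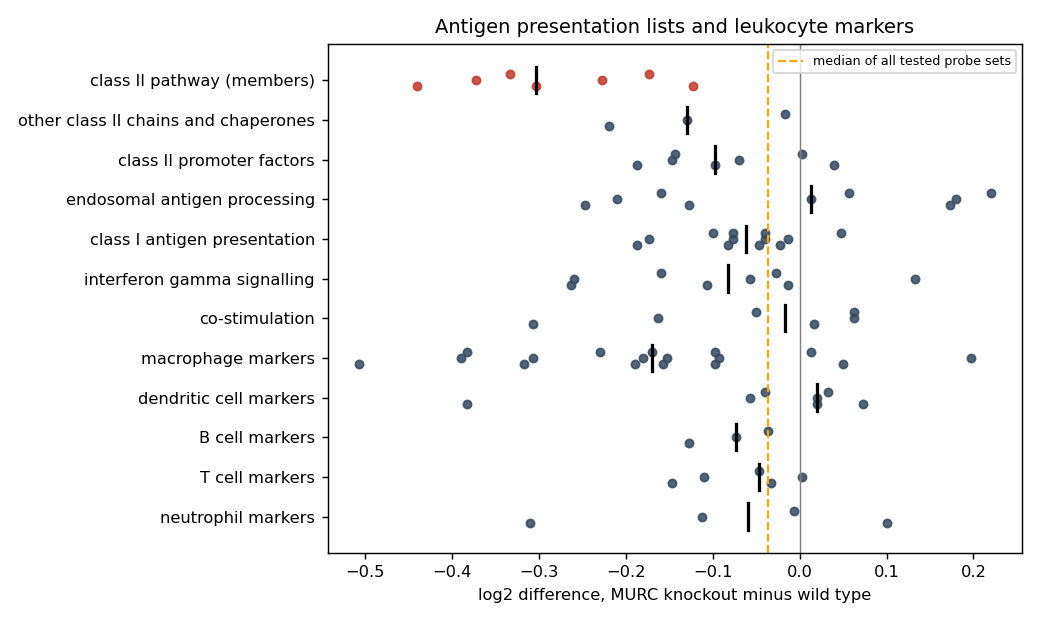
Log2 difference, MURC knockout minus wild type (horizontal axis), of each tested gene in the class II pathway set (red) and in lists of related genes and leukocyte markers (dark points). Black bars are list medians and the dashed line is the median of all tested probe sets. The class II set has a median of -0.30, the macrophage markers -0.17, and the other lists lie between -0.13 and 0.02.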

How the data were processed

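The authors deposited log2 expression values for 35556 probe sets, 1 column per array. MAS5 is named in the submitters' processing notes without role or version; the sources used here do not give summarization, background correction, scaling or genome build. Biotin-labelled cDNA was made from 100 ng of total RNA, per the labels' protocols. The log2 scale was settled from the values (0.46 to 13.72). Values were used as deposited, named through the platform annotation (1 symbol for 21789 probe sets, several for 1621, none listed for 12146), with symbols updated through RefSeq GRCm38.p6 (21698 matched). That table gave names only, and promoter sequences are RefSeq's.

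Genotypes were compared with limma 3.58.1 in R 4.3.3 (lmFit, eBayes with an intensity trend, two-sided, Benjamini-Hochberg adjustment over all tested probe sets). In simulated arrays with normal noise and 24889 tested probe sets, this recovered 33.3% of log2 changes of 0.5 and 71.4% of changes of 1. There 115 probe sets passed the adjusted threshold, 7 of them unchanged, against 1 in the deposited data. The adjusted threshold was thus easier to pass in the simulation, and its recovery cannot be carried over to these arrays. Where a gene had several probe sets, the one with the highest mean was used. The number of arrays limits the precision. The genes and lists were chosen with earlier results of these data known, and those results include H2-Aa, H2-Ab1 and H2-Eb1. Named are all members, up to 4 genes per list by smallest p, the 8 genes most alike in pattern (predicted genes, small RNAs and olfactory or vomeronasal receptors left out) and Cavin4. H2-Ea, Ccr2, Cd3d, Cd3g and the other markers below the filter, C1qa, C1qc, Zbtb46, Batf3, Ifng and Myl7 are named outside that rule. Alternatives were other scalings, filters and variance models, age, a replicate block and leaving out each array.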

Additional observations from a re-analysis of the deposited data

How the results depend on the processing

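The median log2 difference of the 7 class II genes stayed below 0 under all 16 alternatives, with a range of -0.37 to -0.22 when each array was left out. No class II gene passed the adjusted threshold in limma as deposited, where 4 had an unadjusted p under 0.05, and 1 passed, H2-Aa, when only annotated probe sets were tested. The adjusted p of H2-Aa ranged from 0.0341 to 0.33 over its alternatives. Ctss ranged from -0.248 to 0.102 when each array was left out, the last without wild-type replicate 3, and was -0.28 with age as a covariate, and no other class II gene changed sign in the alternatives run. Ciita was not tested with the filter at the 50th percentile. Over all tested probe sets, 1 passed as deposited, 130 after quantile normalization, 105 after median centring, 48 with the filter at the 50th percentile, 361 among annotated probe sets, 126 with array weights, 34 with age as a covariate and from 0 to 11 with an array left out; the cause was not tested. With the replicate block 0 probe sets passed and the median of the 7 genes was -0.303; same-numbered arrays correlated at -0.059, 0.021 and -0.057 after removal of the genotype means, so the numbers were not taken as pairs. Leaving out each array was also applied to the medians of the related lists, an alternative chosen after seeing the data. The medians crossed 0 for endosomal processing (-0.022 to 0.038), co-stimulation (-0.069 to 0.032), dendritic cell (-0.037 to 0.04), neutrophil (-0.144 to 0.037), endothelial (-0.015 to 0.109), fibroblast (-0.058 to 0.002) and ventricular cardiomyocyte genes (-0.011 to 0.002). They stayed below 0 for macrophage markers (-0.29 to -0.057), promoter factors (-0.17 to -0.028), other class II chains (-0.163 to -0.062), interferon gamma signalling (-0.115 to -0.052), class I presentation (-0.068 to -0.043), T cell (-0.113 to -0.008) and B cell markers (-0.115 to -0.063).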
